A study of Mus musculus with 6 samples.

Results

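The Sez6 and Lrrn genes encode 2 small families of membrane proteins known mainly from neurons, and all 7 members (Sez6, Sez6l and Sez6l2; Lrrn1, Lrrn2, Lrrn3 and Lrrn4) were followed among the 23337 gene symbols of the data set. Of the 7 genes, 2 were picked from measured values: Sez6l and Lrrn1, because both were higher in every Insm1-KO library than in any Insm1-Het library. The other 5 are their paralogs, taken by family name. Values from the comparison of the genotypes therefore describe Sez6l and Lrrn1 and do not test them.

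RNA came from E18.5 outer hair cells, which amplify sound in the cochlea by changing length. They had been sorted from the organ of Corti as cells positive for Insm1-GFP-Cre. There were 3 libraries labelled Insm1-Het and 3 labelled Insm1-KO. The Insm1-GFP-Cre allele is thus common to both genotypes, and it is not stated what part of Insm1 is missing in the KO, nor whether a library holds 1 animal or a pool. Differences are therefore measured only against the spread between these libraries, which may be technical.

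Sez6 proteins carry CUB and sushi (complement control) domains outside the cell, span the membrane once, and are shed from neurons by the protease BACE1. They are known for roles in dendrite and synapse development and as regulators of complement. Lrrn proteins carry extracellular leucine-rich repeats with an immunoglobulin and a fibronectin domain, and Lrrn1 is best known from the formation of boundaries between compartments of the embryonic brain. Insm1, the zinc-finger factor removed here, is known as a repressor that is present for a short time in new outer hair cells.

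The libraries held between 7705177 and 12427039 counts. Spearman correlations between libraries across the 11714 tested genes were 0.810 to 0.829 for the pairs with KO replicate 3 and 0.861 to 0.900 for the other pairs, so that library stood apart, and the members' log2 fold changes and the list medians are also given without it. Myo6, a myosin of all hair cells, was at 4849 to 5210 CPM (a gene's counts scaled to a common library total adjusted by TMM factors) in all 6 libraries. Insm1 was at 109.3, 116.2 and 69.2 CPM in Het replicates 1, 2 and 3 and at 78.7, 60.3 and 18.7 CPM in KO replicates 1, 2 and 3. Its ranges overlapped, so the transcript level checks the labels only in part.

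For orientation, the bases before the transcription start are shown for Sez6l and Lrrn1, the pair picked for being higher in every KO library. They are also shown for Lrrn2, a paralog whose ranges overlapped. RefSeq's table of GRCm38.p6 held a window of 250 bases before the start for 4 of the 7 members. Sez6, also higher in every KO library, was not among them. The starts of RefSeq and GENCODE M21 differ: GENCODE starts 13 bases further downstream for Sez6l and 42 for Lrrn1, and for Lrrn2 it starts 82 bases upstream, so of the Lrrn2 window only the 168 bases before the GENCODE start are printed. The stretch compared just after the RefSeq start of Lrrn1 was not found in its GENCODE transcripts. Each is printed 5′ to 3′ on the strand of its gene, from chr5:112577199-112577448 (minus strand), chr6:107529476-107529725 (plus strand) and chr1:132880105-132880272 (plus strand). Capitals mark 2 motifs searched on both strands: CANNTG, the E-box of basic helix-loop-helix factors, and GGGGNC, a short and looser form of the G-rich consensus described for Insm1. Any base was allowed at N, so a match to GGGGNC need not match that consensus.
Sez6l: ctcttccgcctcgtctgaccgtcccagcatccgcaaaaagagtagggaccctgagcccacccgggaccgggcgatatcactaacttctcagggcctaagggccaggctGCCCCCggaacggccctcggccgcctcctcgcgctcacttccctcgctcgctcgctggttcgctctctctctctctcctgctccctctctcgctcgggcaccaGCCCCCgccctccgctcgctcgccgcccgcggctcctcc
Lrrn1: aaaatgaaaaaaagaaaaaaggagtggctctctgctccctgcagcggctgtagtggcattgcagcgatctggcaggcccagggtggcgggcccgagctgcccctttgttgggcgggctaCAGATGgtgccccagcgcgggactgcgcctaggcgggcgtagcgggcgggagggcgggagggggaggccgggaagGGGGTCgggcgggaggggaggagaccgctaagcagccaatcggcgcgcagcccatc
Lrrn2: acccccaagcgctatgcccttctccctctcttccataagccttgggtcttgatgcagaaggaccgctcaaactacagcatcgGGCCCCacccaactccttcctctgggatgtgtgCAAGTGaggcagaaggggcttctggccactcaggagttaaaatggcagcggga

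Over the full windows, that of Sez6l held 0 matches to CANNTG and 2 to GGGGNC, the Lrrn1 window 1 and 1, and the Lrrn2 window 1 and 1. Of 32851 windows of the same length in the table, 66.2% held CANNTG and 50.2% held GGGGNC, so a match is common. The letters GGGCGG, a GC box that binds Sp factors, occurred 2 times at Sez6l, 4 times at Lrrn1 and 0 times at Lrrn2, and in 32.7% of all windows. GGGCGG and GGGGNC can share bases. TATAAA occurred in none of the 3 windows and in 12.4% of all windows. GC content was 69.6% at Sez6l, 68% at Lrrn1 and 61.6% at Lrrn2, against a median of 52.4% over all windows.

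Sez6l, a Sez6 paralog of neuronal membranes, lies at chr5:112419151-112577185 on the minus strand (GRCm38, GENCODE M21), with 17 separate exon blocks. It was at 8.79, 8.52 and 10.4 CPM in Het replicates 1, 2 and 3 and at 30.0, 106.7 and 78.8 CPM in KO replicates 1, 2 and 3. The Het libraries lay close together, the KO libraries spread over 3.56-fold, and the lowest KO library was 2.90 times the highest Het library. The group levels were 9.22 ± 0.988 CPM in Het and 71.8 ± 38.8 CPM in KO (SD, n = 3). This gave 2.96 (SE 0.60) as the log2 fold change. Of the 11714 tested genes, 103 had a larger log2 fold change, and since Sez6l was picked by this comparison that rank is a description. Without KO replicate 3, the library that stood apart, the log2 fold change of Sez6l was 2.89. The raw values behind these levels were 108, 91 and 131 reads in the Het libraries and 281, 818 and 708 reads in the KO libraries.

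Sez6, the founding member, first found as a transcript induced by seizure-provoking treatment of cortical neurons, lies at chr11:77930800-77979048 on the plus strand. It was at 0.896, 0 and 8.38 CPM in Het replicates 1, 2 and 3 and at 16.5, 19.4 and 40.4 CPM in the KO replicates. All KO libraries were above all Het libraries, but the Het libraries ranged from 0 to 106 counts, and the lowest KO library was 1.98 times the highest Het library. The log2 fold change was 3.03 (SE 1.35), and it was 5.77 without Het replicate 3, the library that holds most of the Het counts, and 2.54 without KO replicate 3. Sez6 reached the count minimum of the expression filter in all 3 KO libraries but in 1 Het library, so it entered the comparison through the group in which it was high.

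Sez6l2, the third member (chr7:126950563-126970606, plus strand), was at 8.14, 2.997 and 24.4 CPM in Het replicates 1, 2 and 3 and at 27.7, 12.7 and 24.7 CPM in the KO replicates. The genotypes overlapped: KO replicate 2 lay below Het replicate 3. Its log2 fold change of 0.87 had a 95% interval of -1.02 to 2.76, which holds both lower and higher levels. The value became 1.96 without Het replicate 3, 0.41 without Het replicate 2 and 0.78 without KO replicate 3. Sez6l2 shares 413 exon bases on the same strand with the annotated transcript Gm21984, so some of its reads cannot be assigned with certainty.

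Lrrn1, a leucine-rich repeat protein of the developing nervous system, lies at chr6:107529768-107570214 on the plus strand with 2 exon blocks. It was at 8.06, 24.1 and 26.8 CPM in Het replicates 1, 2 and 3 and at 61.8, 74.7 and 175.7 CPM in the KO replicates. All KO libraries were above all Het libraries, the lowest KO library was 2.31 times the highest Het library, and KO replicate 3 was far above the other two. Mean levels were 19.6 ± 10.1 CPM in Het and 104.1 ± 62.4 CPM in KO (SD, n = 3), and the fitted log2 fold change was 2.41 (SE 0.58). Without KO replicate 3 the log2 fold change was 1.81, and without Het replicate 1, the lowest library, it was 2.03. The KO order differed from that of Sez6l, which was highest in KO replicate 2.

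**Figure D1:**
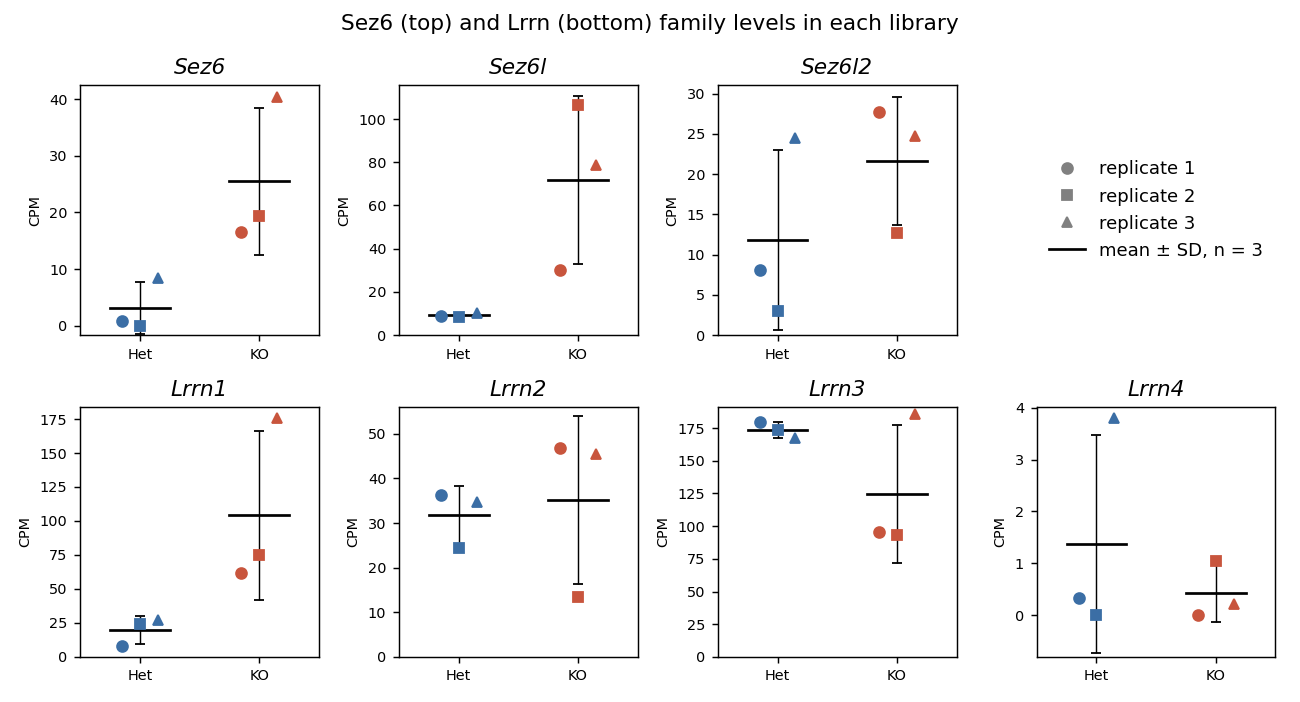
Level of each member in CPM (vertical axes, each with its own scale) in the Het and KO libraries; points are libraries, bars the mean and whiskers the SD of 3 libraries (a whisker may pass below 0, a level may not). Sez6, Sez6l and Lrrn1 have all KO libraries above all Het libraries, while Sez6l2, Lrrn2 and Lrrn3 overlap and Lrrn4 is near 0.

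Lrrn3, the most abundant of the 7 genes (chr12:41451668-41486431, minus strand), went the other way in the first 2 KO replicates. It was at 179.6, 173.8 and 167.3 CPM in Het replicates 1, 2 and 3 and at 95.3, 93.4 and 185.7 CPM in the KO replicates. KO replicates 1 and 2 lay below every Het library, but KO replicate 3 lay above them all. Its log2 fold change of -0.48 had a 95% interval of -1.17 to 0.22, and became -0.87 once KO replicate 3 was left out. Lrrn3 lies within an intron of Immp2l, a mitochondrial peptidase gene on the other strand, with 0 shared exon bases, and Immp2l itself was at 2.61, 0 and 0.0790 CPM in Het and 2.67, 0 and 11.2 CPM in KO libraries.

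Lrrn2 (chr1:132880273-132940005, plus strand) was at 36.4, 24.3 and 34.7 CPM in Het replicates 1, 2 and 3 and at 46.8, 13.4 and 45.4 CPM in the KO replicates. KO replicate 2 was the lowest of the 6 libraries and the other 2 KO libraries were the highest. Its log2 fold change was 0.15 (95% interval -1.16 to 1.46) and it took the opposite sign with the replicate number as a block and without Het replicate 2, KO replicate 1 or KO replicate 3, so no direction can be given. Lrrn4 (chr2:132868305-132880891, minus strand) had 4, 0 and 48 reads in Het replicates 1, 2 and 3 and 0, 8 and 2 reads in the KO replicates. It fell below the expression filter, and most of its reads came from Het replicate 3 alone.

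Over all genes, 0 of 11714 (0%) passed the quasi-likelihood test of edgeR at a Benjamini-Hochberg adjusted threshold of 0.05, so the 6 tested members did not pass either. At an unadjusted p under 0.05 there were 626 genes. Of the 6 tested members, 3 had all KO libraries above all Het libraries and 0 had them all below, against 5.08% and 6.1% of all tested genes. Because 2 of those 3 were picked for this pattern and the third entered through its KO libraries, nothing is read from that count. The median log2 fold change of the 6 was 1.64 (1.29 without KO replicate 3), against 0.02 over all tested genes, and is likewise set by how the genes were picked. DESeq2 was run on all 23337 symbols with its own filtering, not on the 11714 genes that edgeR and limma-voom tested, so the counts rest on unlike gene sets. With Benjamini-Hochberg adjustment DESeq2 passed 45 genes, Sez6l and Lrrn1 among them, and limma-voom passed 0. Sez6l and Lrrn1 also passed edgeR's test when no expression filter was applied, where 67 genes passed in all. Both were picked by this same comparison, so these passes are a description and do not test them.

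**Figure D2:**
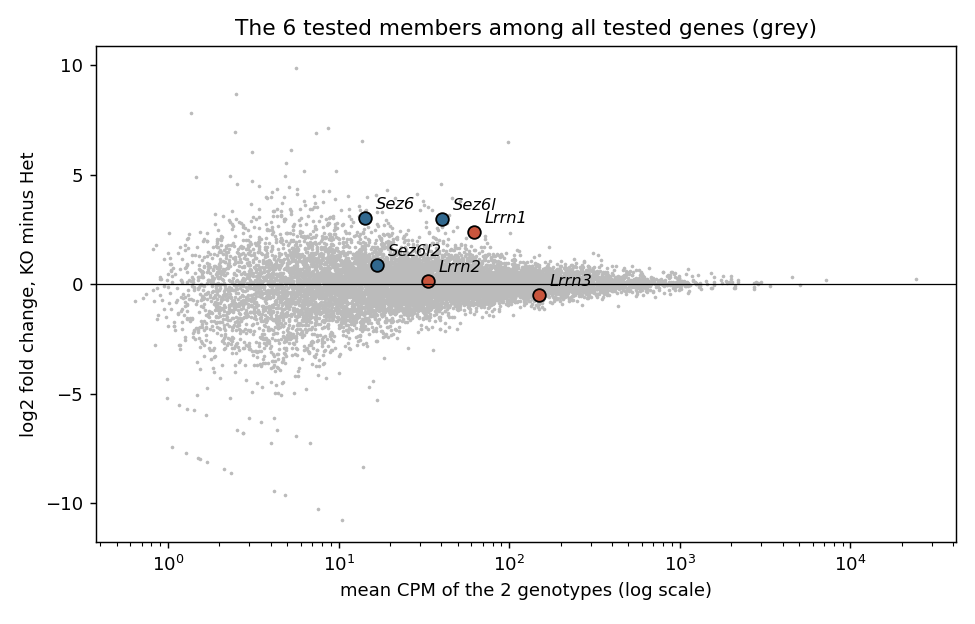
Log2 fold change, KO minus Het (vertical axis), against the mean CPM of both genotypes (horizontal axis, log scale) for 11714 tested genes (grey) and the 6 tested members (Sez6 family blue, Lrrn family red). Sez6, Sez6l and Lrrn1 lie at 3.03, 2.96 and 2.41, near the upper edge of the cloud at their level, and Sez6l2, Lrrn2 and Lrrn3 lie within it.

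**Figure D3:**
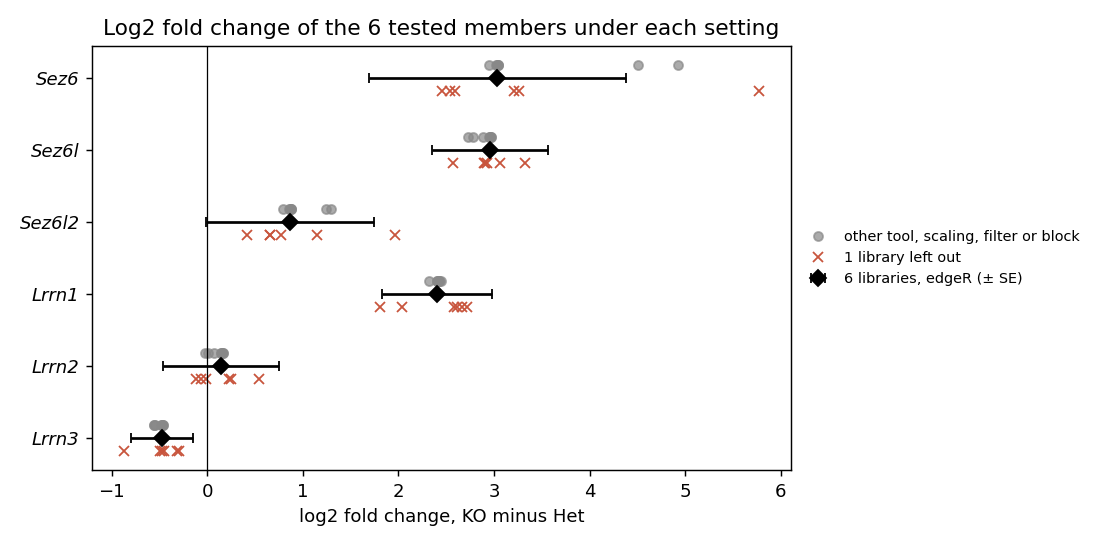
Log2 fold change of each tested member (horizontal axis) from all 6 libraries (diamond, whiskers 1 SE), with 1 library left out (crosses) and with other tools, scalings, filters or the replicate block (grey points). Sez6l stays between 2.57 and 3.33 and Lrrn1 between 1.81 and 2.71, Lrrn3 stays below 0, and Lrrn2 falls on both sides of 0.

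Levels of different genes were compared per kilobase of annotated exon. In Het libraries Lrrn3 led with 44.9 ± 1.60 CPM per kb (SD, n = 3), followed by Lrrn2 at 8.85 ± 1.81, Lrrn1 at 5.31 ± 2.73, Sez6l2 at 2.82 ± 2.66, Sez6l at 1.52 ± 0.163, Sez6 at 0.535 ± 0.796 and Lrrn4 at 0.370 ± 0.566. Only Lrrn3 was apart from its neighbour in that order in every library. From Lrrn2 downwards neighbours had overlapping ranges, although Lrrn2 was above Lrrn1 within each of the 3 Het libraries. In KO libraries the order was Lrrn3 at 32.3 ± 13.7, Lrrn1 at 28.1 ± 16.9, Sez6l at 11.8 ± 6.40, Lrrn2 at 9.79 ± 5.25, Sez6l2 at 5.15 ± 1.89, Sez6 at 4.41 ± 2.25 and Lrrn4 at 0.114 ± 0.148 CPM per kb. There only Sez6 and Lrrn4 were apart, and Lrrn1 was still below Lrrn3 within each KO library.

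Within the Lrrn family, the summed level was 58.9, 58.3 and 61.2 CPM per kb in Het replicates 1, 2 and 3 and 54.4, 48.4 and 108.2 in the KO replicates, with no separation of the genotypes. The make-up of that sum differed. Lrrn3 made up 79.0%, 77.2% and 70.7% of it in the Het libraries and 45.4%, 49.9% and 44.4% in the KO libraries, while Lrrn1 made up 3.70%, 11.2% and 11.8% and then 30.7%, 41.8% and 43.9%. Per kilobase, the ratio of Lrrn1 to Lrrn3 was 0.0469, 0.145 and 0.167 in Het and 0.677, 0.836 and 0.988 in KO libraries. KO replicate 3 had the highest levels of both genes and still fell beside the other KO libraries in this ratio. Since the ratio contains Lrrn1, which was picked by its levels, it too is a description.

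In the Sez6 family the summed level was 3.54, 2.12 and 8.96 CPM per kb in Het and 14.4, 23.9 and 25.8 in KO libraries, and all KO libraries were above all Het libraries. This sum contains Sez6l, which was picked by its levels, and Sez6, which entered through its KO libraries. Its separation is therefore a description, and the remaining member, Sez6l2, overlapped between genotypes. The share of Sez6l in that sum was 41.0%, 66.4% and 19.0% in Het and 34.4%, 73.4% and 50.2% in KO libraries. The shares overlapped between genotypes, unlike those of Lrrn1 and Lrrn3. To see whether reads could be assigned to the wrong paralog, the annotated transcripts were compared, and 0 stretches of 31 bases were shared between transcripts of any of the 7 genes. Sez6l and each Lrrn gene shared 0 such stretches with any other annotated transcript, while 1.08% of those of Sez6 and 8.92% of those of Sez6l2 occurred in another gene.

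**Figure D4:**
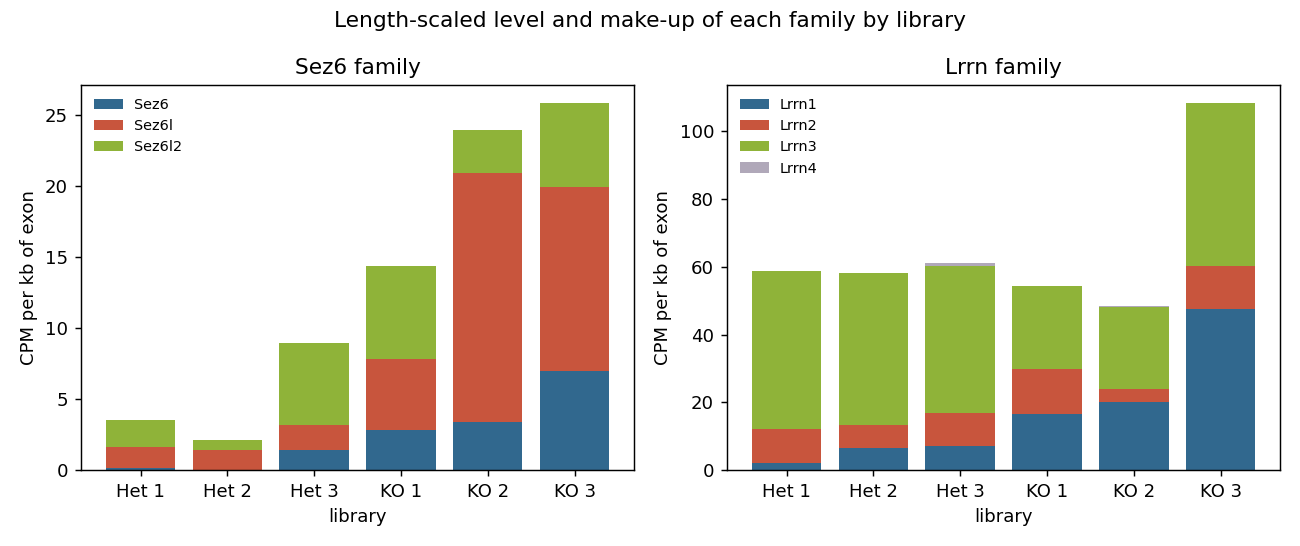
CPM per kilobase of exon (vertical axes) of each member, stacked by family, in each of the 6 libraries (horizontal axes). The Sez6 family sum is 2.12 to 8.96 in Het and 14.4 to 25.8 in KO libraries, and in the Lrrn family the share of Lrrn1 is larger and that of Lrrn3 smaller in every KO library while the sums overlap. Both contain a gene picked by its levels (Sez6l and Lrrn1) and are descriptions only.

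Among the 6 tested members, the Pearson correlation of log2 CPM over the 6 libraries was 0.86 between Sez6l and Lrrn1, 0.91 between Sez6 and Sez6l2 and 0.79 between Sez6 and Sez6l. Lrrn3 had a negative correlation with Lrrn1 (-0.33) and with Sez6l (-0.53). These values rest on 6 libraries that share the same genotype difference. Sez6l and Lrrn1 were picked by that difference and Sez6 entered through its KO libraries, so the correlations among them are a description.

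Of 10322 genes with a mean of at least 5 CPM, the profile of Sez6l over the 6 libraries was most like those of Zzz3 (r = 0.998), Bmp2 (r = 0.992), Nsd1 (r = 0.989), Cnot4 (r = 0.988) and Uqcrb (r = 0.984). Zzz3 is a subunit of a histone acetyltransferase complex, Bmp2 a secreted growth factor, Nsd1 a histone methyltransferase, Cnot4 a ubiquitin ligase and Uqcrb a subunit of respiratory complex III. Their log2 fold changes were 0.49, 0.83, 0.27, 0.51 and 1.75 in that order, all below that of Sez6l. As an example, Bmp2 was at 47.6, 45.7 and 49.6 CPM in Het and 65.7, 104.1 and 83.5 CPM in KO libraries. Lrrn1 was most like Fabp5 (r = 0.986), a fatty acid binding protein, Mrps27 (r = 0.986), a mitochondrial ribosomal protein, Socs2 (r = 0.981), a regulator of cytokine signalling, 1500012F01Rik (r = 0.975) and Pcdh7 (r = 0.97), a protocadherin. Pcdh7 was at 228.1, 337.5 and 296.4 CPM in Het and 391.1, 462.1 and 681.2 CPM in KO libraries. These genes were selected as the top of a ranking over 6 libraries that share the genotype difference, so the values describe likeness of profile only.

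The nearest tested genes on either side of Sez6l and Lrrn1 overlapped between genotypes, but most lay far away. Beside Sez6l, Hps4 (40.7 kb away) and 2900026A02Rik (509 kb) had log2 fold changes of -0.39 (SE 0.50) and -0.03 (SE 0.23). Beside Lrrn1, Crbn (730 kb) and Setmar (495 kb) had -0.03 (SE 0.70) and 0.55 (SE 1.32). Genes that were not tested may lie nearer, so these values do not describe the adjacent loci. The protein-coding gene Gm6588, whose level is not given here, overlaps Sez6l on the other strand with 0 shared exon bases. Beside Sez6, Myo18a, an unconventional myosin, was lower in every KO library, at 204.6, 194.5 and 192.2 against 114.5, 116.6 and 130.4 CPM. On its other side Phf12, a chromatin reader 3.71 kb away, was at 62.2, 53.5 and 78.3 CPM in Het and 24.6, 123.1 and 277.3 CPM in KO libraries. Nfasc, a cell adhesion protein next to Lrrn2, was higher in every KO library, at 196.3, 202.2 and 255.8 against 293.0, 327.2 and 417.5 CPM. Next to Lrrn4, Crls1, the cardiolipin synthase, was also higher in every KO library, at 10.3, 12.2 and 6.96 against 23.5, 16.0 and 26.3 CPM. Bmp2, given above, lies 671 kb from Lrrn4 on its other side. The remaining tested neighbours, Kctd13 and Cdipt beside Sez6l2, Mdm4 beside Lrrn2 and Dnajb9, 2719 kb from Lrrn3, overlapped between genotypes. Over all tested genes 5.08% were higher and 6.1% lower in every KO library, and nothing is read from the neighbours that were.

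Related proteins were described by lists. Of the BACE proteases, Bace1 was at 153.4, 145.7 and 117.2 CPM in Het and 155.6, 96.3 and 154.2 CPM in KO libraries, and Bace2 at 11.1, 8.05 and 27.3 against 30.1, 18.8 and 19.6 CPM. Both overlapped between genotypes, and both were chosen after their values were seen. Of 13 tested genes in the list of BACE proteases and other substrates, 0 passed the test in either direction and the median log2 fold change was 0.25 (0.18 without KO replicate 3 to 0.43 without Het replicate 3). App, the amyloid precursor protein and the most abundant of them, was at 694.9, 726.7 and 791.4 CPM in Het and 795.5, 942.2 and 1108 CPM in KO libraries, the 1 gene of the list whose genotypes did not overlap. Its lowest KO library was barely above its highest Het library. Over all tested genes, 5.08% had all KO libraries above all Het libraries, so nothing is read from 1 gene of 13. Nrcam, a neuronal adhesion protein, overlapped at 708.9 ± 57.1 and 845.4 ± 304.1 CPM (SD, n = 3).

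Of 9 tested genes with CUB or sushi domains outside the Sez6 family, 7 lay above 0 and 2 below. Of these, 0 passed the test and 0 had separate genotypes, against 5.08% above and 6.1% below over all tested genes. The median was 0.42 (0.30 without Het replicate 1 to 0.68 without Het replicate 2, and 0.57 without KO replicate 3). The 2 most abundant were Nrp2, a semaphorin receptor, at 73.0 ± 15.8 and 80.1 ± 24.3 CPM, and Susd6, listed as 4933426M11Rik, at 61.7 ± 26.9 and 92.1 ± 15.8 CPM (SD, n = 3). Susd4, a sushi protein that inhibits complement and was chosen after its values were seen, reached 207.0 CPM in KO replicate 3 but 19.9 and 30.9 CPM in KO replicates 1 and 2, against 30.6, 37.6 and 52.8 CPM in Het libraries. Of 17 complement genes only 4 were tested and 0 passed, and their median of 0.05 ran from -0.81 without KO replicate 1 to 0.32 without KO replicate 2, with 0.25 without KO replicate 3. Cd59a, which blocks the membrane attack complex, was at 12.8, 7.30 and 9.41 CPM in Het and 1.07, 3.91 and 1.11 CPM in KO libraries, all KO libraries below all Het libraries. Over all tested genes, 6.1% had this pattern. Cr1l, a membrane regulator of complement, was at 55.0 ± 27.2 and 53.5 ± 22.6 CPM and Masp1, a lectin pathway protease, at 21.5 ± 13.2 and 33.7 ± 14.3 CPM (SD, n = 3). C3 and C1q genes were not among the tested genes.

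Of 24 tested leucine-rich repeat proteins of neuronal membranes outside the Lrrn family, 11 lay above 0 and 13 below, 0 passed the test and the median was -0.05. That median was 0.08 without KO replicate 3 and 0.44 without Het replicate 3, so it gives no direction. Flrt2, which binds Unc5 receptors and latrophilins, was at 34.0, 48.8 and 55.2 CPM in Het and 90.2, 58.3 and 146.6 CPM in KO libraries, and Lrfn4, a synaptic adhesion protein, at 11.1, 3.84 and 8.61 against 16.4, 16.6 and 13.8 CPM. These 2 had all KO libraries above all Het libraries, and 1 gene of the list had them all below. Over all tested genes the shares were 5.08% and 6.1%, and nothing is read from counts of this size. Lrig1, a brake on receptor tyrosine kinases, chosen after its values were seen, was at 2.77, 2.62 and 2.77 CPM in Het and 1.07, 0 and 0 CPM in KO libraries. With 10, 0 and 0 counts in the KO libraries, Lrig1 entered the comparison through its Het libraries. The 2 most abundant, Slitrk6, which supports innervation of the cochlea, and Elfn1, a synaptic organiser, overlapped at 278.3 ± 58.6 and 468.2 ± 219.3 CPM and at 150.3 ± 27.3 and 219.3 ± 65.1 CPM (SD, n = 3). The list thus held genes on either side of 0.

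**Figure D5:**
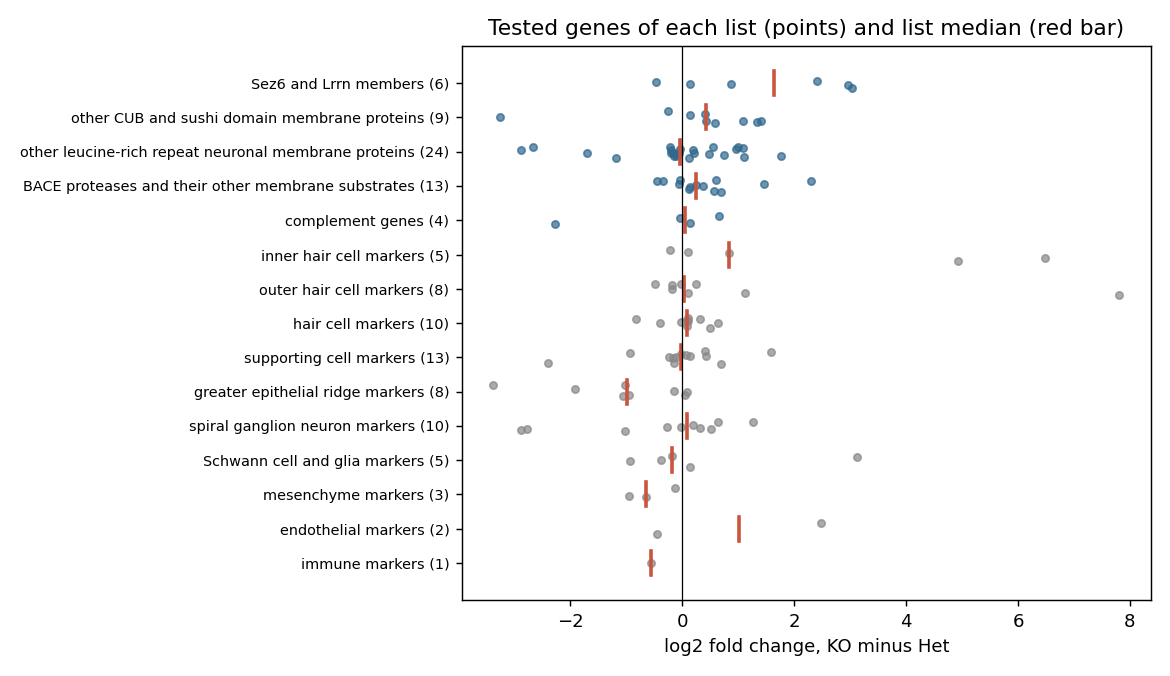
Log2 fold change, KO minus Het (horizontal axis), of every tested gene of each list (points; vertical position within a list is arbitrary), with the list median as a red bar and the number of tested genes in brackets; marker lists in grey. The 24 other leucine-rich repeat genes have a median of -0.05 and the 9 other CUB and sushi genes one of 0.42, the first of which turns sign when KO replicate 3 is left out, and 0 genes of any list passed the test.

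Both families are known from neurons, so markers of spiral ganglion neurons and other cell types were measured beside them; in bulk RNA, fewer cells of a type and less RNA per cell cannot be told apart. The 16 neuron markers summed to 1377 to 1548 CPM in Het and 1412 to 2125 CPM in KO libraries. The 2 most abundant were Nefm, a neurofilament, at 532.1 ± 84.6 and 662.9 ± 274.5 CPM, and Gata3, also a hair cell gene, at 363.8 ± 40.8 and 569.4 ± 188.4 CPM (SD, n = 3). Nefl, Snap25 and Isl1 followed, with Het means of 304.2, 119.8 and 98.6 CPM and KO means of 345.5, 98.9 and 96.7 CPM. Tubb3, Prph and Neurod1 were not tested and had group means of at most 1.90 CPM, and Prph was at 0 counts in 5 of 6 libraries. Of 10 tested, 0 passed, 2 were higher in every KO library (Gata3 and Rbfox3) and 1 was lower (Elavl4). Over all tested genes 5.08% were higher and 6.1% lower in every KO library, and nothing is read from such small counts. The median log2 fold change of the neuron markers was 0.08 (-0.04 without KO replicate 3). The 15 supporting cell markers summed to 1390 to 1578 CPM in Het and 1537 to 1853 CPM in KO libraries, led by Prox1 at 453.5 ± 73.3 and 600.4 ± 126.2 CPM and S100a1 at 200.7 ± 38.8 and 323.4 ± 97.9 CPM (SD, n = 3). Of 13 tested, 0 passed, and S100a1 and Lfng were higher and Gjb2 lower in every KO library, against the same shares over all tested genes. Nothing is read from these counts either. The median of the supporting cell markers was -0.02 (-0.10 without KO replicate 3, 0.12 without Het replicate 3). The part of neuron or supporting cell RNA in the levels of Sez6l and Lrrn1 was not tested. Rbfox3, Elavl4, Nefl, Snap25, Isl1, Tubb3, Prph, Neurod1, Lfng and Gjb2 were chosen after their values were seen.

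Of 5 tested inner hair cell markers, 3 were higher in every KO library (Brip1, Tbx2 and Rprm, chosen after their values were seen), against 5.08% of all tested genes. The list was fixed with these results known, so nothing is read from that count. In Het replicates 1, 2 and 3 Brip1 had 6, 0 and 75 counts and Tbx2 had 2, 1 and 8. Both thus entered the comparison through their KO libraries. The 2 most abundant markers of the list overlapped between genotypes: Otof, which encodes otoferlin, needed for transmitter release, had a log2 fold change of 0.10 (SE 0.21) and Nhlh1, a transcription factor, one of -0.22 (SE 0.26). The median was 0.83 (1.003 without KO replicate 3, 0.54 without KO replicate 2). Of 8 outer hair cell markers, Ocm was higher and Strip2, listed as Fam40b, lower in every KO library. Ocm had 0 counts in each Het library and 15, 22 and 33 in KO replicates 1, 2 and 3. It thus entered the comparison through its KO libraries. Chrna10, with Strip2 1 of the 2 most abundant, overlapped, and the median of the list was 0.04 (0.14 without KO replicate 3). Of 10 general hair cell markers, Atoh1 was higher and Gfi1 lower in every KO library, against the same shares over all tested genes. Nothing is read from these counts of single genes. Myo6 and Ptprq, the most abundant, overlapped, and the median was 0.09 (-0.03 without KO replicate 3). Ocm, Atoh1 and Gfi1 were chosen after their values were seen. Sums of glial markers (led by Cnp and Sox10), mesenchyme markers (Pdgfra and Dcn), greater epithelial ridge markers (Tectb and Tecta), endothelial markers (Egfl7 and Cdh5) and immune markers (Laptm5) overlapped between genotypes. Their medians over 5, 3, 8, 2 and 1 tested genes were -0.18, -0.64, -0.99, 1.01 and -0.55. With 1 library left out these medians moved widely: glial from -0.41 (without KO replicate 3) to 0.28 (without Het replicate 3), mesenchyme from -1.07 (without Het replicate 1) to 0.05 (without Het replicate 3), ridge from -1.13 (without Het replicate 1) to -0.25 (without Het replicate 3), endothelial from -0.04 (without KO replicate 3) to 2.62 (without Het replicate 3), and immune from -1.41 (without KO replicate 3) to -0.24 (without KO replicate 1). Without KO replicate 3 the mesenchyme and ridge medians were -0.46 and -0.45. No direction is read from them, and 0 genes of these marker lists passed the test.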

How the data were processed

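The deposited values are raw counts of reads for each gene symbol, made by the authors separately for every library. The submitters' processing notes name Trimmomatic, STAR, HTSeq and GRCm38 (mm10); which annotation, strand setting and multi-mapping rule they used is not given in the sources used here. Without a strand setting, overlapping genes on opposite strands cannot be told apart. Per the labels' protocols, RNA was freed of ribosomal RNA, primed with random hexamers and amplified. Amplified reads are not independent molecules, so counting error understates the error.

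The filter filterByExpr, at a minimum count of 10 and a minimum total of 15, kept 11714 genes. Libraries were scaled by TMM, and genotypes compared with edgeR 4.0.16 (quasi-likelihood F test, genotype as the only term, Benjamini-Hochberg adjustment, threshold 0.05). CPM use the TMM-scaled totals; CPM per kb divide by the union of GENCODE M21 exons. Standard errors come from dividing a log2 fold change by the root of its F statistic, and 95% intervals use the fit's degrees of freedom. Log2 CPM used a prior count of 2. The edgeR step was also run on simulated counts, and the outcome of that run is not used here. Alternatives were DESeq2 1.42.0, limma 3.58.1 (voom), other scalings and filters, a robust fit, the replicate number as a block, and each library left out.

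Members and lists were chosen with earlier results of these data known. Genes named are all 7 members, Insm1, from the lists of related proteins those that passed, those with separate genotypes at a mean of at least 5 CPM and the 2 most abundant, from marker lists the 2 most abundant, the 5 genes most like Sez6l and Lrrn1, and chromosomal neighbours; any other gene is marked where it is named. The list gene Csmd2 was not matched to a symbol and is not analysed here.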

Additional observations from a re-analysis of the deposited data

How the results depend on the processing

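The number of genes past the threshold was 0 with all 6 libraries, and it was also 0 with median-ratio or library-size scaling, with at least 5 CPM in 3 libraries, with a robust dispersion fit, under limma-voom and with any 1 library left out (lowest and highest value 0). It was 67 with no filter, 45 under DESeq2, which was run on all symbols with its own filtering, and 1 with the replicate block. The cause was not tested. Sez6l and Lrrn1 were among the genes passed with no filter and under DESeq2. Both were picked by this contrast, so that does not test them. In the other alternatives 0 members passed. Genes higher in every KO library numbered 595, and 1035 to 1340 with 1 library left out, where fewer libraries have to be apart. The labels do not say whether a replicate number marks a shared animal, litter or day. Deviations from the genotype means of same-numbered libraries correlated at 0.010, 0.0073 and 0.014, and only replicate 3 correlated best with its own number. No pairing was seen, but 3 libraries per genotype cannot settle it.

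Under the 14 alternatives, Sez6, Sez6l, Sez6l2, Lrrn1 and Lrrn3 kept the sign of the log2 fold change. Lrrn2 did not: it was -0.027 with the replicate block, and with 1 library left out it ran from -0.11 without KO replicate 1 to 0.54 without KO replicate 2, with -0.014 without Het replicate 2 and -0.068 without KO replicate 3. Sez6 was 4.51 with the replicate block, 4.92 under limma-voom and 5.77 without Het replicate 3, where the Het level rests on 11 and 0 counts. The median over all tested genes moved by less than 0.1 between scalings, from -0.05 to 0.03. Lrrn4 is too shallow for a comparison.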
